A study of Mus musculus with 6 samples.

Results

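The genes described here encode the subunits, activators and dedicated assembly factors of the proteasome, followed in a mouse dermal fibroblast cell line of wild-type (WT) genotype and in its Lap2alpha knockout (KO) counterpart. They were chosen by name: a protein-coding symbol of the GENCODE M21 annotation that starts with Psm, a letter from a to g and a number, leaving out the inducible catalytic subunits Psmb8, Psmb9 and Psmb10. The annotation holds 47 such genes, and 46 of them were among the 28293 genes counted. Psma8, a testis alpha subunit, was not analysed here. Psmc3ip fits the name pattern but encodes a meiotic recombination factor, so it is given apart, which leaves 45 proteasome genes. Of these, 44 had enough counts to be tested. The exception was Psmb11, the catalytic beta subunit of thymic epithelium, with 3 counts in WT and 9 in KO over 3 libraries each. Its ratio of KO to WT was 2.77, with an exact 95% binomial (Clopper-Pearson) interval of 0.690 to 15.9 that covers counting error only.

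Polyadenylated RNA was sequenced in 3 WT and 3 KO libraries and counted per gene. LAP2alpha is a lamin A/C-binding protein of the nuclear interior and a product of the gene Tmpo. The medium of both genotypes was DMEM, to which fetal calf serum, penicillin and streptomycin had been added. The labels do not say whether KO is 1 clone, how the gene was disrupted, or whether the 3 libraries of a genotype came from separate cultures, so the spread behind each p-value is that between these libraries and may be technical.

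The proteasome is the protease that degrades proteins tagged with ubiquitin. Its core is a barrel whose outer alpha rings gate the entry and whose inner beta rings carry the proteolytic sites, on Psmb5, Psmb6 and Psmb7. The regulatory particle caps the barrel: a ring of ATPases (Psmc genes) unfolds the substrate, and non-ATPase subunits (Psmd genes) bind ubiquitin chains and remove them. Activators (Psme genes) open the core without ATP, and assembly factors (Psmg genes, Psmd5, Psmd9 and Psmd10) bring the rings together and are not part of the finished particle.

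Levels are given in counts per 1000000 counts of the library (CPM), and fold changes are those of edgeR, KO over WT, with a standard error (SE). The SE was derived as the absolute log2 fold change divided by the square root of the F statistic of the edgeR test. A gene is called where its edgeR adjusted p was under 0.05. The libraries held 22159339 to 27281473 counts. The scaling used by edgeR places log2 fold changes 0.08 below the ratio of the CPM values, so a gene with slightly higher CPM in KO can have a fold change close to 0. Tmpo, which encodes all LAP2 isoforms, fell from 252 ± 2.65 to 129 ± 6.81 CPM (SD, n = 3), a log2 fold change of −1.04 (SE 0.0549, adjusted p 4.9e-08), and a gene-level count does not single out the alpha isoform. Pearson correlations of log2 CPM were 0.995 to 0.998 within a genotype and 0.929 to 0.934 between genotypes. Differences were widespread: 11330 of 15081 tested genes were called, or 75.1%. Mitochondrially encoded genes took 1.99% to 2.45% of the counts in WT and 3.76% to 4.46% in KO. Of 9 fibroblast markers, 8 were higher in KO and 1, Thy1, was lower, and their summed level was 5830 to 6221 CPM in WT and 22520 to 23931 CPM in KO. Summed markers of keratinocytes (4 of 6 listed, mostly Krt10) lay between 6.63 and 8.39 CPM in WT and between 4.49 and 6.27 CPM in KO. Those of endothelial cells (4 of 4 listed) ranged from 1.26 to 1.47 and from 0.233 to 0.880 CPM. Those of leukocytes (2 of 5 listed, with Ptprc at 0 in the 3 KO libraries and in 2 of the 3 WT libraries) ranged from 0.677 to 0.689 and from 0.550 to 1.36 CPM. Melanocyte markers (4 of 4 listed) summed to 1.17 to 2.98 CPM in WT and 0.367 to 0.905 CPM in KO. In bulk samples fewer cells of a type and less RNA per cell cannot be told apart, and the part of these differences in the values below was not tested. Leaving out the mitochondrially encoded genes left 40 proteasome genes called, 6 higher and 34 lower, as with them. That refit still held 15054 of the tested genes, so its calls could hardly differ and it does not test that part.

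Most proteasome genes were lower in KO, while 4 of the 5 activators were higher. The 45 genes together took 0.752% to 0.770% of all counts in the WT libraries and 0.587% to 0.602% in the KO libraries, and their summed level went from 7590 ± 97.7 to 5955 ± 81.0 CPM (SD, n = 3). Of the 44 tested genes 40 were called (90.9%, against 75.1% of all tested genes). Among them 34 were lower in KO, or 77.3%, where 37.5% of all tested genes were lower. A further 6 were higher (13.6%, against 37.7%): Psme1, Psme2, Psme2b, Psme4, Psmd10 and Psmb7. Psmb4, Psmb6, Psmc2 and Psmc3 were not called.

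The median log2 fold change of the 44 genes was −0.48, beside 0.01 over all tested genes and −0.06 over the 8792 protein-coding genes with a mean of at least 10 CPM. In that second set 44.1% of genes were lower in KO and 37.1% higher. The values of the 2 genotypes did not overlap for 39 of the 44 genes (76.8% of all tested genes), the others being Psmb4, Psmc3, Psmd3, Psmd4 and Psmg2. A decrease of at least 1.5-fold was found for 17 genes (22.5% of all tested genes had one), and an increase of at least 1.5-fold for 3 genes (25.7%), all of them activators.

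**Figure D1:**
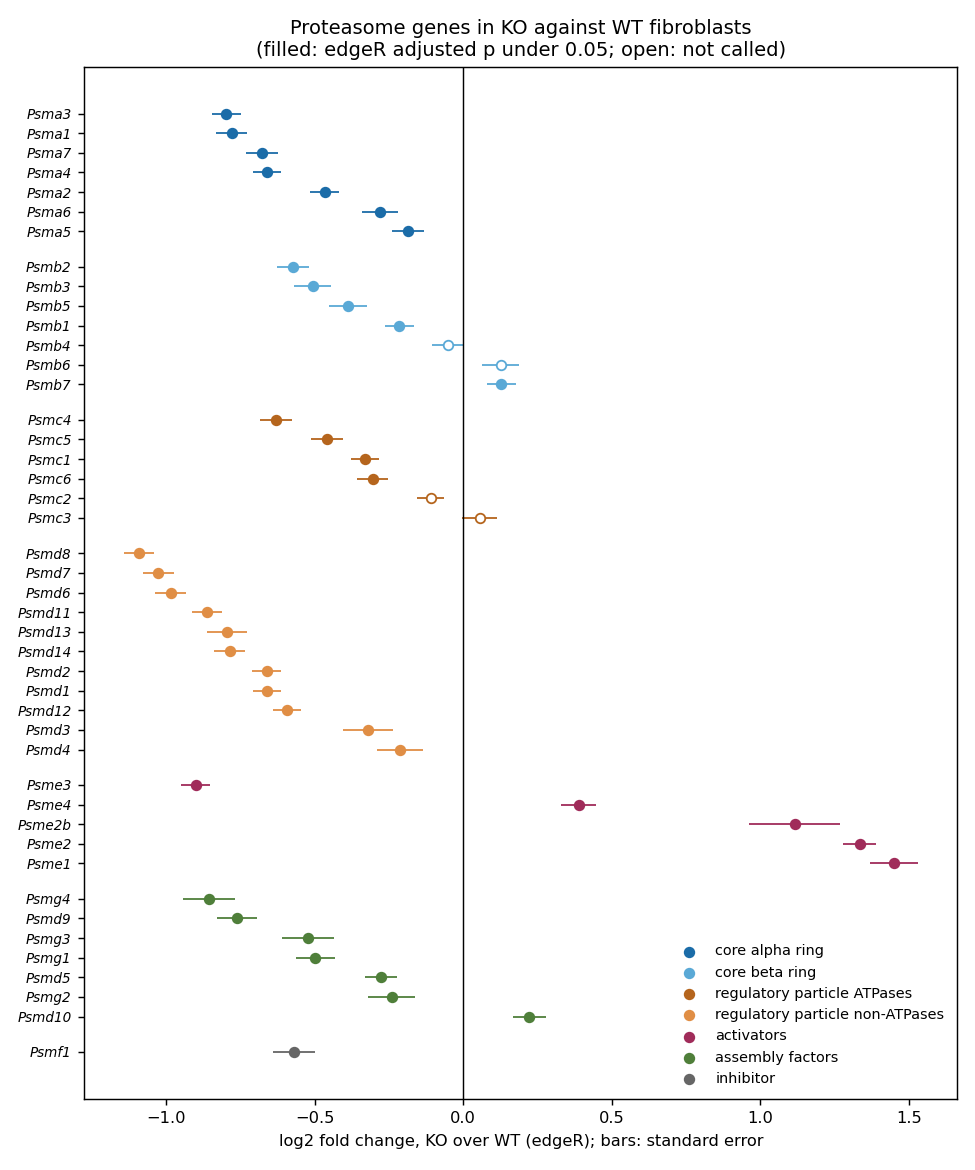
Log2 fold change of each tested proteasome gene, KO over WT, with its standard error as a bar, grouped by class; filled points were called and open points were not. The alpha ring and the non-ATPase subunits lie wholly to the left of 0, while Psme1, Psme2 and Psme2b lie beyond 1 on the right.

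By class, medians ran from −0.79 to 1.12. All 7 alpha ring genes were lower, with a median log2 fold change of −0.66. So were all 11 non-ATPase subunits of the regulatory particle that fit the name pattern, with a median of −0.79. The 7 tested beta ring genes had a median of −0.22, with 4 lower and 1 higher, and the 6 ATPases a median of −0.32, with 4 lower and none higher. Of the 7 assembly factors 6 were lower and 1 higher (median −0.50). The 5 activators had a median of 1.12, with 4 higher and 1 lower. That median is the value of Psme2b, a gene at 2.42 CPM in WT. Its counts are uncertain apart from those of Psme2, with which it shares sequence.

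Summed over the class, the alpha ring went from 1509 ± 23.2 to 1076 ± 8.79 CPM and the beta ring from 1188 ± 24.3 to 1087 ± 33.0 CPM (SD, n = 3). Non-ATPase subunits went from 2846 ± 49.0 to 1852 ± 52.1 CPM and ATPases from 1356 ± 18.2 to 1197 ± 19.6 CPM. Assembly factors went from 262 ± 7.03 to 220.1 ± 1.90 CPM. Activators went the other way, from 393 ± 0.831 to 496 ± 8.05 CPM. In none of these 6 classes did a KO library reach into the WT range.

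**Figure D2:**
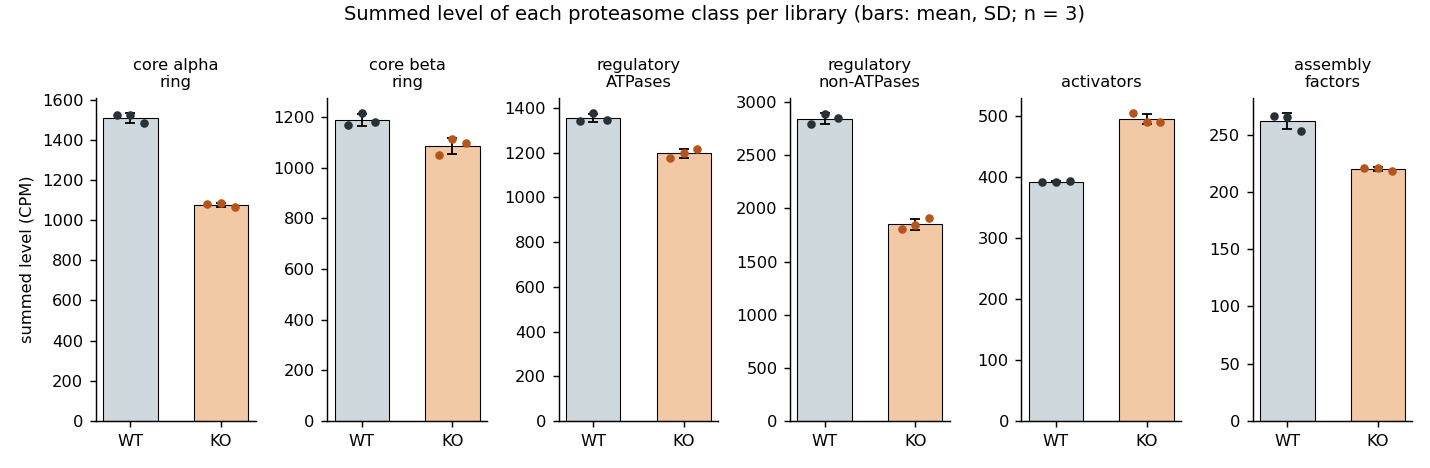
Summed level in CPM of each proteasome class in every library, with the mean and SD of 3 libraries per genotype. Each class has its own axis from 0; activators are the class whose KO points, near 496 CPM, lie above the WT points, near 393 CPM.

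The ratios between classes were also taken inside each library, where scaling between libraries plays no part. The summed counts of the alpha ring over those of the beta ring were 1.303, 1.252 and 1.257 in WT and 1.03, 0.974 and 0.972 in KO. The counts of the 8 lid subunits of the name pattern over those of the 6 ATPases were 1.34, 1.36 and 1.36 in WT. In KO they were 0.946, 0.928 and 0.945. That lid sum leaves out the lid subunit Sem1, whose symbol lies outside the pattern and which rose from 136 to 278 CPM. Counting it in would make the fall of the lid ratio smaller. Both ratios were lower in every KO library than in any WT library, by 22.0% and 30.5% on average. An exact permutation test of 3 against 3 libraries cannot give a two-sided p below 0.1, which is also what full separation of the groups gives, so these differences do not pass 0.05 by that test.

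Within the core, the alpha ring fell as a block but not evenly. Psma3 was the gene with the largest fall. Its WT libraries held 204, 194 and 198 CPM and its KO libraries 124, 121 and 117 CPM. All 3 KO values lay far below the WT range, and the log2 fold change was −0.80 (SE 0.0494, edgeR adjusted p 1.5e-07), or 1.74-fold lower. Psma1 went from 219.9, 222 and 209 CPM in WT to 138, 129.9 and 132 CPM in KO, again with no overlap and with a log2 fold change of −0.78 (SE 0.0525, adjusted p 2.9e-07).

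Psma7 and Psma4 fell by 0.68 and 0.66 on the log2 scale, Psma2 by 0.47 and Psma6 by 0.28. At the other end, Psma5 held 189, 191 and 182 CPM in WT and 167, 174 and 180.03 CPM in KO. The highest KO value lay just under the lowest WT value, and the log2 fold change was −0.19 (SE 0.0528, adjusted p 0.0086). That call was lost with library totals alone (−0.11, adjusted p 0.077) and with upper-quartile scaling (−0.12, adjusted p 0.056). Psma5 shares 54.5% of its 50-base words with other annotated genes, chiefly processed pseudogenes, and reads from those cannot be assigned with certainty. With the counts of the sharing genes added, its log2 fold change was −0.21 (adjusted p 0.0047). The same check for Psma3, with 22.0% of its words shared, gave −0.83.

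The beta ring showed the widest split inside the core. Among the subunits without a catalytic site, Psmb2 fell most, from 142, 144 and 139.9 CPM to 95.3, 103 and 104 CPM, a log2 fold change of −0.57 (SE 0.0539, adjusted p 3.8e-06). Psmb3 fell from 193, 209.9 and 199.6 CPM to 137, 155 and 155 CPM (log2 fold change −0.51, SE 0.0628, adjusted p 3.2e-05). For both genes all KO values lay below all WT values. Psmb3 shares 55.8% of its 50-base words with other genes, and with their counts added its log2 fold change was −0.50. Psmb1 fell by a smaller step, 0.22 on the log2 scale. Psmb4 was not called: its WT libraries held 231, 244 and 233 CPM and its KO libraries 229, 249.5 and 243 CPM. Those ranges overlap, and the fit gave −0.05 (SE 0.0531, adjusted p 0.41), with the sign turning under library totals (0.027) and upper-quartile scaling (0.013). A GC-content offset placed Psmb4 past the threshold (−0.12, adjusted p 0.016).

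The 3 constitutive catalytic subunits did not move together. Psmb5, the chymotrypsin-like site and the main target of proteasome inhibitor drugs, held 99.01, 105 and 103 CPM in WT and 76.8, 81.9 and 88.8 CPM in KO. No KO library reached the WT range, and the log2 fold change was −0.39 (SE 0.0637, adjusted p 0.00025), a decrease of 23.6%. Psmb6, the caspase-like site, held 102, 109 and 104 CPM in WT and 112, 124 and 127 CPM in KO. The KO values lay above the WT values, but Psmb6 was not called (log2 fold change 0.13, SE 0.0620, adjusted p 0.089). It passed with library totals alone (0.20, adjusted p 0.011), with upper-quartile scaling (0.19, adjusted p 0.019), with the replicate block (0.12, adjusted p 0.044) and without KO replicate 1 (0.19, adjusted p 0.013).

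Psmb7, the trypsin-like site, held 114, 112 and 113 CPM in WT and 129, 135 and 128 CPM in KO. Its KO values were higher in 3 of 3 libraries, and the gene was called at a log2 fold change of 0.13 (SE 0.0480, adjusted p 0.032). The call rests on the full set of libraries, since it was lost without WT replicate 1 (adjusted p 0.083), WT replicate 2 (0.091), WT replicate 3 (0.17), KO replicate 2 (0.12) or KO replicate 3 (0.061), and with no low-count filter (0.19). Of its exonic bases 11.8% lie opposite exons of Nek6, and the strand setting of the counting is not given in the sources used here.

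Ratios inside a library use the same counts as these fold changes, without scaling between libraries, so they restate the split and add no separate evidence. The count of Psmb5 over that of Psmb7 was 0.865, 0.937 and 0.914 in WT and 0.596, 0.609 and 0.694 in KO. Psmb5 over Psmb6 was 0.968, 0.960 and 0.998 in WT and 0.686, 0.662 and 0.699 in KO. The ratios were 30.09% and 30.03% lower in KO, with no overlap between the genotypes. In contrast, Psmb6 over Psmb7 was 0.928 ± 0.0426 in WT and 0.927 ± 0.0625 in KO (SD, n = 3), a difference within the spread. Psmb5 shares 57.1% of its 50-base words with other genes, mostly the processed pseudogene Gm3375, and its log2 fold change with their counts added was −0.44 (adjusted p 6.6e-05).

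The promoter stretches of the catalytic subunits Psmb5 and Psmb6 are shown because Psmb5 was called lower and Psmb6 was not called, while each holds the letters TGACNNNGC (N is any base). These letters are the core of the antioxidant response element bound by the transcription factors encoded by Nfe2l1 and Nfe2l2 with small Maf partners. The sequences come from RefSeq (GRCm38.p6), run 5′ to 3′ on the gene's strand from 220 bases before to 30 bases after the start, and have the matched letters in capitals.
Psmb5, chr14:54617966-54618215, minus strand: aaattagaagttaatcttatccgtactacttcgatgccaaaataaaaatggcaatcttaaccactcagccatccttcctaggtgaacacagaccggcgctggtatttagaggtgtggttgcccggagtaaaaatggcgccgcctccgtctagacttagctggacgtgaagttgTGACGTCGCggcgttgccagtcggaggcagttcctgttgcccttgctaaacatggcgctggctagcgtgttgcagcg
Psmb6, chr11:70525137-70525386, plus strand: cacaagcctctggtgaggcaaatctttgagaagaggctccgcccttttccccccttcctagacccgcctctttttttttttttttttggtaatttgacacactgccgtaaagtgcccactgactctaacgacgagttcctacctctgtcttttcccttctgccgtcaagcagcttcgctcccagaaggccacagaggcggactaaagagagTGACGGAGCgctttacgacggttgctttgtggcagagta

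The match began 47 bases before the start in Psmb5 and 9 bases before it in Psmb6. A match is a description of letters and not a shown binding site.

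**Figure D3:**
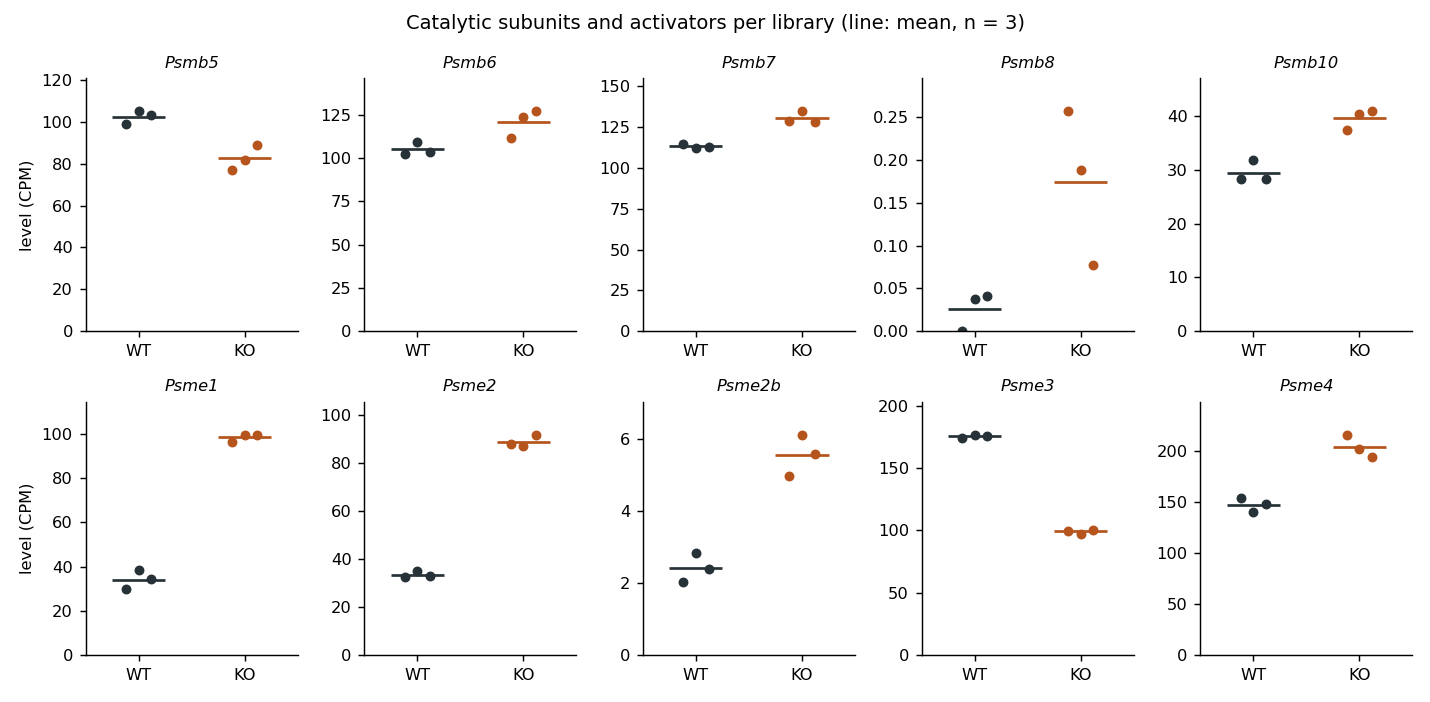
Level in CPM of the catalytic subunits (with the inducible Psmb8, at 2 counts in WT and 14 in KO, and Psmb10) and of the activators in each of the 6 libraries, each gene on its own axis from 0, with the mean of 3 libraries as a line. Psmb5 is lower in KO and Psmb6 and Psmb7 slightly higher; Psme1 and Psme2 rise from near 34 CPM to between 87 and 99.5 CPM, while Psme3 drops from 175 to 99.1 CPM.

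In the ATPase ring of the regulatory particle 4 of 6 genes were lower in KO. Psmc4 fell most: 118, 124 and 119 CPM in WT against 78.4, 83.8 and 84.3 CPM in KO, a log2 fold change of −0.63 (SE 0.0541, adjusted p 1.9e-06). Psmc5 fell from 274, 285 and 278 CPM to 203, 215 and 224 CPM (log2 fold change −0.46, SE 0.0539, adjusted p 2.1e-05). Neither gene had a KO value within the WT range. Psmc1 and Psmc6 fell by 0.33 and 0.30 on the log2 scale.

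Psmc2 and Psmc3 were not called. The WT libraries held 242, 259 and 245 CPM of Psmc3 and the KO libraries 257, 270.4 and 289.7 CPM. Those ranges overlap, the fit gave 0.06 (SE 0.0593, adjusted p 0.41), and the sign turned with a GC-content offset (−0.078) and without KO replicate 3 (−0.0046). For Psmc2 the log2 fold change was −0.11 (SE 0.0468, adjusted p 0.054), and limma-voom (adjusted p 0.049), the replicate block (0.038) and the fit without WT replicate 1 (0.043) placed it just past the threshold.

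Every non-ATPase subunit that fits the name pattern was lower in KO. The lid includes the deubiquitinating enzyme Psmd14 and its partner Psmd7. Its 8 genes of that pattern were all lower, with a median log2 fold change of −0.83, and 7 of the 8 fell by at least 1.5-fold. The lid subunit Sem1, whose symbol lies outside the pattern, was higher (log2 fold change 0.95). Psmd8 fell most of all 44 tested genes. Its WT libraries held 142, 149 and 141 CPM and its KO libraries 72.1, 70.9 and 71.4 CPM. The KO values lay close together (SD 0.624 CPM) and far below the WT range, and the log2 fold change was −1.09 (SE 0.0503, adjusted p 1.9e-08), 2.13-fold lower. Psmd7 came next, from 363, 397 and 384 CPM to 194, 201 and 198 CPM, a log2 fold change of −1.03 (SE 0.0515, adjusted p 3.4e-08), again without overlap.

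Psmd6 fell by 0.98 on the log2 scale, Psmd11 by 0.86, Psmd13 and Psmd14 by 0.79 each and Psmd12 by 0.59. Psmd3 had the mildest fall of the lid. It fell by 0.32 (SE 0.0830, adjusted p 0.0051), with KO replicate 3, at 229.9 CPM, above the lowest WT library, at 223 CPM. Of Psmd13's exonic bases 10.1% lie opposite exons of Sirt3.

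In the base of the particle, the scaffold subunits Psmd1 and Psmd2 fell by 0.66 each (adjusted p 4.4e-07 and 6.4e-07). The ubiquitin receptor Psmd4 held 203, 226 and 213 CPM in WT and 175, 194 and 215 CPM in KO. Those ranges overlap, and the log2 fold change was −0.21 (SE 0.0772, adjusted p 0.028). The call was lost with library totals alone (adjusted p 0.13), with upper-quartile scaling (0.10), and without KO replicate 1 (0.11), KO replicate 2 (0.076) or WT replicate 2 (0.11). Psmd8 and Psmc3 were paired after their values were seen, as the genes of the regulatory particle with the lowest and the highest fold change. Within a library, the count of Psmd8 over that of Psmc3 was 0.589, 0.576 and 0.577 in WT and 0.280, 0.262 and 0.247 in KO, 54.7% lower on average, which describes the extremes only.

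The lid promoters of Psmd8, Psmd6 and Psmd11 are shown for the large falls of their genes, in the same 250-base frame, with ETS core letters (CCGGAA on either strand, the core bound by ETS family factors) in capitals where present.
Psmd8, chr7:29180644-29180893, minus strand: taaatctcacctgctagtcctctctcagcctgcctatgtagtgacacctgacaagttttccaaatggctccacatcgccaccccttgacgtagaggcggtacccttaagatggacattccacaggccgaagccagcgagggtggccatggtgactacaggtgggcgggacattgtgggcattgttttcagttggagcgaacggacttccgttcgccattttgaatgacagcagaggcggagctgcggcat
Psmd6, chr14:14120916-14121165, minus strand: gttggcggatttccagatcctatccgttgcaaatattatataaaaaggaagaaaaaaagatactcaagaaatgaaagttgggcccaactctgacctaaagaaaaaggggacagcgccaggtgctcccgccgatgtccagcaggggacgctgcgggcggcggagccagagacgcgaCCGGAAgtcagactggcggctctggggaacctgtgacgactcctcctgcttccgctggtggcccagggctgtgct
Psmd11, chr11:80428395-80428644, plus strand: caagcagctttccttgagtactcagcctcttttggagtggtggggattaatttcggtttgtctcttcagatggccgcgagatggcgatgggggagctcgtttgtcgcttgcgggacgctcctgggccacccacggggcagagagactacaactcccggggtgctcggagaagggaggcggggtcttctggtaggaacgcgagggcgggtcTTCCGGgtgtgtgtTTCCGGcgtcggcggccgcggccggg

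Psmd6 held the ETS core 45 bases before the start, and Psmd11 held it 10 bases before the start and again just after it. Psmd8, with the largest fall, held none of the 5 letter patterns searched, which says only that these letters are not in its window.

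Over the whole group, 38 of the 45 proteasome genes had a RefSeq promoter entry (GRCm38.p6), with 41 windows of 250 bases before to 50 after the start. The ETS core occurred in 21 of the 41 windows (51.2%), in 14.9% of the 32851 windows of the table and in 30.03% of the 8998 windows of tested protein-coding genes with at least 10 CPM. It was present in 16 of 30 windows of genes called lower (53.3%, 29 genes) and in 2 of 6 windows of genes called higher (33.3%, 5 genes). Among the latter, Psme2 was counted in 2 overlapping windows, neither with a match. The antioxidant response core TGACNNNGC was in 6 windows (14.6%, against 12.4% of the table and 14.3% of the expressed genes), those of Psmb5, Psmb6, Psmc6, Psmd9, Psmd12 and Psme4. CCAAT, the box bound by NF-Y, was in 13 windows (31.7%, against 37.4% and 38.1%). The palindrome bound by the nuclear respiratory factor was in 2 windows (4.88%, against 0.971% and 2.30%), those of Psma2 and Psmg1. All patterns were read on both strands. The TGACNNNGC windows thus belong to genes that fell, a gene that rose and 1 that was not called.

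Activators were the class that rose, and inside it 1 gene went the other way. Psme1 and Psme2 encode the subunits of the interferon-inducible activator ring that caps the core mostly in the cytoplasm. Psme1 held 29.8, 38.4 and 34.2 CPM in WT and 96.5, 99.5 and 99.3 CPM in KO. Every KO library lay far above every WT library, and the log2 fold change was 1.45 (SE 0.0812, adjusted p 7.4e-08), or 2.73-fold higher. Psme2 held 32.3, 34.9 and 32.9 CPM in WT and 87.9, 87.0 and 91.5 CPM in KO, again without overlap, with a log2 fold change of 1.33 (SE 0.0566, adjusted p 1.1e-08), or 2.52-fold higher.

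The counts of Psme1 over Psme2 were 1.02 ± 0.0895 in WT and 1.11 ± 0.0307 in KO (SD, n = 3) and their values overlapped. They lie near each other on chromosome 14 on opposite strands, Psme1 at chr14:55578123-55581529 and Psme2 at chr14:55587441-55591113 (GRCm38). Psme2b, a copy of Psme2 on chromosome 11, rose by 1.12 on the log2 scale (SE 0.154, adjusted p 7.2e-05) from 2.42 ± 0.397 to 5.56 ± 0.562 CPM. It shares 69.3% of its 50-base words with other genes, chiefly Psme2, and Psme2 shares 59.3%, so the 2 genes' counts are uncertain apart from each other. Their counts together gave a log2 fold change of 1.32 (adjusted p 1.3e-08).

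Psme3, which forms the nuclear activator ring, moved opposite to them. Its WT libraries held 174, 176 and 176 CPM and its KO libraries 99.8, 96.9 and 101 CPM. No KO value came near the WT range, and the log2 fold change was −0.90 (SE 0.0481, adjusted p 5.2e-08), a decrease of 46.4%. The count of Psme1 over that of Psme3 was 0.171, 0.218 and 0.195 in the WT libraries and 0.966, 1.03 and 0.988 in the KO libraries, 5.11-fold higher. The highest WT ratio lay well below the lowest KO ratio. Psme1 and Psme3 had the highest and the lowest fold change of the activators, so this ratio describes the extremes only.

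Psme4, the large single-chain nuclear activator linked to acetylated histones, held 154, 140.3 and 148 CPM in WT and 216, 202 and 194 CPM in KO. Its KO values all lay above the WT values, with a log2 fold change of 0.39 (SE 0.0583, adjusted p 0.00013), or 1.31-fold higher. The nuclear activators thus moved in opposite directions.

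The promoters of the activator genes that moved furthest are shown with their matches in capitals, in the frame used above. Besides the ETS core and CCAAT, the core of the interferon response element (a pair of GAAA blocks with any 2 bases between them) was searched after the values of Psme1 and Psme2 had been seen.
Psme1, chr14:55578274-55578523, plus strand: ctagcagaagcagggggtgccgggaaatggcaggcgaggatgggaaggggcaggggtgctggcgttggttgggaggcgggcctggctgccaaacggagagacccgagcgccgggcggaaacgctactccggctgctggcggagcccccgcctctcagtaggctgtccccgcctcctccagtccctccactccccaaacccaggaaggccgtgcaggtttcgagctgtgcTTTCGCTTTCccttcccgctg
Psme2, chr14:55591072-55591321, minus strand: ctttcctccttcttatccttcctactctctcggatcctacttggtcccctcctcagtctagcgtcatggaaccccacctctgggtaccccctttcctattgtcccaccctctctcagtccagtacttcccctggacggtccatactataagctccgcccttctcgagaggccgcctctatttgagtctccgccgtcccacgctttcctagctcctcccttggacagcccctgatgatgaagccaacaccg
Psme3, chr11:101315993-101316242, plus strand: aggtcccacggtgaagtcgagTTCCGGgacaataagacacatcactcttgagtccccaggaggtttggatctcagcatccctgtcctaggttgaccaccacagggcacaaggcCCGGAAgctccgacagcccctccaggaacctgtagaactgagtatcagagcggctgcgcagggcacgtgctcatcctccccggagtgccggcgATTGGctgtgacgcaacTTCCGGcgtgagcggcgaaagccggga

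Psme1 held the interferon response core on the opposite strand just after the start, and Psme2 held none of the patterns in its windows. That pattern was in 5 of the 41 windows (12.2%, against 3.44% of the table and 3.00% of expressed genes), those of Psme1, Psmd4, Psmd9, Psmb3 and Psmg4. The other 4 of these genes were lower in KO. Psme3 held the ETS core at 3 places and CCAAT 14 bases before the start.

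The assembly factors mostly fell with the rings they build. Psmg4, the partner of Psmg3 in an alpha ring chaperone, held 13.9, 14.5 and 13.7 CPM in WT and 7.51, 8.56 and 8.46 CPM in KO (log2 fold change −0.86, SE 0.0868, adjusted p 6.8e-06). Psmd9, a chaperone of the ATPase ring, went from 51.0, 52.5 and 48.3 CPM to 29.1, 33.2 and 32.2 CPM (log2 fold change −0.76, SE 0.0668, adjusted p 2.2e-06). Neither had a KO value in the WT range, though 25.5% of Psmd9's exonic bases lie opposite exons of the gene model Gm26745. Psmd10 (gankyrin), which chaperones the same ATPase ring, was higher in KO, with 42.0, 41.1 and 40.6 CPM in WT and 51.6, 48.6 and 52.0 CPM in KO. Its values did not overlap, and the log2 fold change was 0.22 (SE 0.0554, adjusted p 0.0041).

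Psmg1 and Psmg3 fell by 0.50 and 0.52 on the log2 scale, Psmd5 by 0.28 and Psmg2 by 0.24. The Psmg2 groups overlapped, and its call was lost with library totals alone (−0.16, adjusted p 0.087) and with upper-quartile scaling (−0.18, adjusted p 0.062). Psmf1, which encodes an inhibitor that binds the core, held 33.3, 38.8 and 39.1 CPM in WT and 26.9, 25.7 and 26.5 CPM in KO. All KO values were lower, with a log2 fold change of −0.57 (SE 0.0717, adjusted p 3.5e-05). Psmc3ip, the recombination factor that shares the name pattern, fell by 1.00 on the log2 scale, from 26.3 ± 1.11 to 13.9 ± 0.571 CPM (SD, n = 3, adjusted p 4.4e-07).

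Levels of different genes were compared per kilobase of annotated exon, scaled to 1000000 per library. On that scale the WT levels of the 45 genes had a median of 121. Psmc5 was highest, at 433 ± 13.1 in WT and 333 ± 17.8 in KO, followed by Psmd7 at 366 ± 20.9 and 189.9 ± 2.82 and by Psma5 at 307 ± 5.31 and 286 ± 11.7 (SD, n = 3). Psmd7 thus went from above Psma5 to below it, since the former fell by far more. The catalytic subunits stood at 247 ± 10.7 for Psmb5, 122 ± 4.98 for Psmb6 and 71.6 ± 1.13 for Psmb7 in WT, and at 199 ± 15.5, 140.3 ± 9.29 and 82.8 ± 1.38 in KO.

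These orders depend on the length used. With the longest coding sequence as length, WT levels were 136 for Psmb5, 154 for Psmb6 and 143 for Psmb7, and Psmc5 stood at 240 while Psmb1 stood at 420 and Psmd7 at 415. Psme1 and Psme2 had 33.5 ± 4.48 and 41.0 ± 1.94 per kilobase of exon in WT, and 96.8 ± 1.68 and 109 ± 3.95 in KO. Psme3 had 129 ± 3.03 in WT and 73.0 ± 2.19 in KO, so on this length Psme3 stood above both in WT and below both in KO. With the coding length Psme3 stood at 241, Psme1 at 47.9 and Psme2 at 48.8 in WT, and they stood at 142, 143 and 135 in KO. The order of Psme3 and Psme2 in KO thus turned with the length used.

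**Figure D4:**
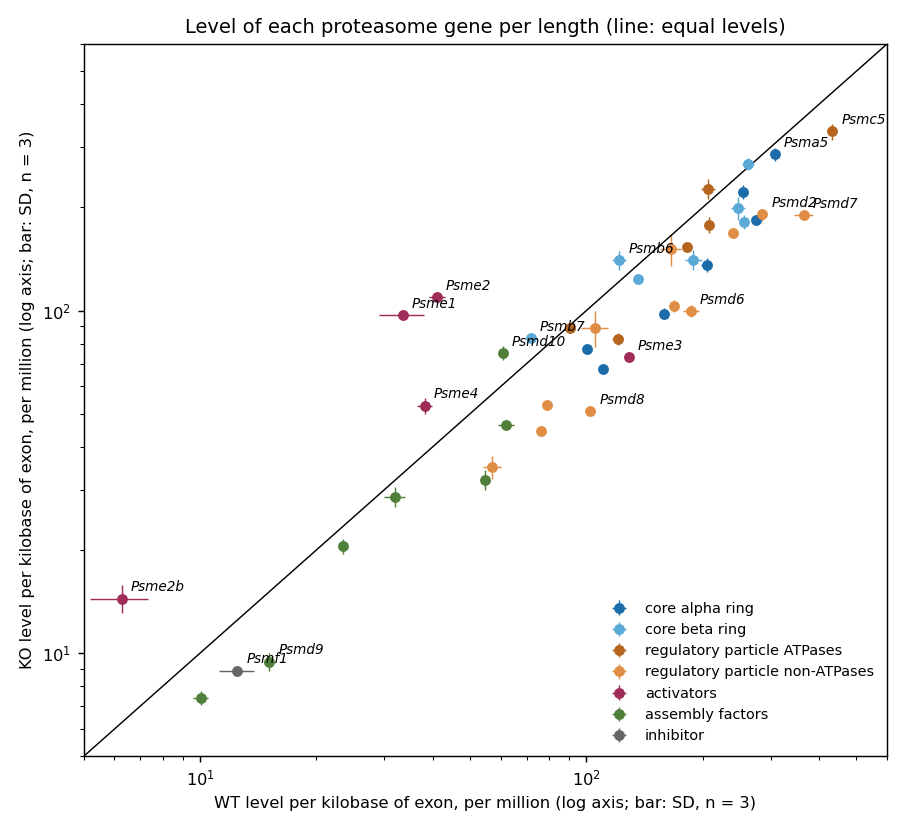
KO level against WT level of each proteasome gene per kilobase of annotated exon, both on log axes, with the SD of 3 libraries as bars and a line of equal levels. Most genes lie below the line; Psme1 (33.5 to 96.8) and Psme2 (41.0 to 109) lie well above it.

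The inducible catalytic subunits, which replace Psmb5, Psmb6 and Psmb7 in the immunoproteasome, were looked at for context. Psmb10, the counterpart of Psmb7, held 28.2, 31.7 and 28.3 CPM in WT and 37.4, 40.3 and 40.8 CPM in KO. The KO values were all higher, with a log2 fold change of 0.35 (SE 0.0691, adjusted p 0.00098). Psmb8 and Psmb9 lay below the count filter, with 2 and 3 counts over the WT libraries and 14 and 27 over the KO libraries. The ratio of KO to WT was 6.45 for Psmb8 (exact 95% binomial interval 1.48 to 58.5) and 8.30 for Psmb9 (2.55 to 42.7), intervals that cover counting error only. Per kilobase of exon, the inducible genes made up 7.83% ± 0.350 of the catalytic transcripts in WT and 10.7% ± 0.119 in KO (SD, n = 3), nearly all of it Psmb10. Psmb10 over the sum of Psmb10 and Psmb7 was 34.3% ± 1.72 in WT and 37.8% ± 1.13 in KO. With the longest coding sequence as length, that share was 20.9% ± 1.26 in WT and 23.5% ± 0.868 in KO.

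Proteasome proteins whose symbols lie outside the name pattern were counted next. Of 15 such genes tested, 13 were lower in KO (86.7%, against 37.5% of all tested genes) and 2 higher (13.3%, against 37.7%), with a median log2 fold change of −0.51. Uchl5, a deubiquitinating enzyme of the regulatory particle, fell from 84.7 ± 4.31 to 31.8 ± 2.18 CPM (log2 fold change −1.49, SE 0.0668, adjusted p 1.6e-08). Its receptor in the particle, Adrm1, fell by 0.77 (SE 0.0571, adjusted p 5.9e-07), though 78.0% of its 50-base words are shared with other genes. Ubqln4, a shuttle that carries ubiquitinated proteins to the particle, fell by 1.04 (SE 0.0495, adjusted p 2.4e-08). The small lid subunit Sem1 rose, from 136 ± 6.56 to 278 ± 16.1 CPM (log2 fold change 0.95, SE 0.0625, adjusted p 2.4e-07). With Sem1 counted in, the lid was thus not uniform.

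A list of 10 genes was drawn up around the transcription of proteasome genes, and their median log2 fold change was −0.25. Not all of them encode transcription factors or act directly on proteasome genes. In this list 2 genes were higher in KO and 5 lower, and 3 did not pass, so the 70.0% called lay near the 75.1% of all tested genes. Nfe2l1, which encodes the transcription factor that induces proteasome genes when the proteasome is inhibited, rose from 249 ± 11.8 to 462 ± 9.18 CPM (log2 fold change 0.81, SE 0.0512, adjusted p 1.7e-07). Its relative Nfe2l2 fell by 0.52 (SE 0.0486, adjusted p 3.5e-06). The small Maf partners Maff and Mafk fell by 1.80 (SE 0.102, adjusted p 7.7e-08) and 1.34 (SE 0.0879, adjusted p 2.3e-07). The third small Maf on the list, Mafg, was not called (−0.11, adjusted p 0.080).

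Of 4 genes for ubiquitin and its activating enzymes, 1 was higher in KO and 2 were lower, while 1 did not pass. The share called, 3 of 4, was like the 75.1% of all tested genes. Uba6, an activating enzyme, fell from 81.0 ± 6.97 to 40.9 ± 3.92 CPM (log2 fold change −1.06, SE 0.0832, adjusted p 9.0e-07). Uba1, the main activating enzyme, fell by 0.27 (SE 0.0520, adjusted p 0.00076). The ubiquitin gene Ubb rose by 0.28 (SE 0.0678, adjusted p 0.0032), and it shares 50-base words with other genes.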

How the data were processed

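Polyadenylated RNA of 6 libraries was sequenced from directional libraries, per the labels. The authors aligned reads with STAR 2.7.10b to GRCm38, per the submitters' processing notes, and deposited raw counts per Ensembl gene, which were used as deposited. The counter, whether it used strand and how it handled reads with several matches are steps not given in the sources used here, and counts of genes with near-identical copies or overlapping neighbours are less certain. GENCODE M21 gave symbols, positions, lengths and the 50-base words of transcripts, with an entry for 28230 of 28293 genes. Promoters are RefSeq windows.

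The edgeR 4.0.16 comparison of KO with WT (R 4.3.3) used TMM scaling, the default low-count filter, a quasi-likelihood test and Benjamini-Hochberg adjustment over 15081 genes. The script was also run on simulated counts in which most genes were left unchanged. In these data most tested genes were called, so that run does not bear on the scaling used here. Levels per kilobase are counts divided by exon length and scaled to 1000000 per library. Proteasome lists, tests and members were chosen with earlier results of these data known, and no list has a test of its own. Per-library values are given for Psmb5, Psmb6, Psmb7 and, in each class, for the 2 largest changes, the smallest, and any called gene over 0.2 against the class median. Other lists are named by up to 4 smallest p-values, and some genes of the ubiquitin list are not reported here. Psmd3, Psme2b, Mafg and the promoters printed were singled out after their values were seen. Ratios of counts inside a library were not among the results planned beforehand.

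Alternatives were DESeq2 1.42.0 size factors and its Wald test, limma-voom (limma 3.58.1), upper-quartile scaling, library totals alone, no filter, a minimum of 1 CPM in at least 3 libraries, the replicate block, a GC-content offset, the coding length and leaving out each library. Adding the counts of genes that share at least 50 such words, leaving out mitochondrially encoded genes and the interferon response core were choices made after the data had been seen. Plots were made in matplotlib 3.10.9.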

Additional observations from a re-analysis of the deposited data

How the results depend on the processing

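The counts of proteasome genes called (40, 6 higher and 34 lower) ranged over 38 to 42, 5 to 7 and 31 to 35 under all alternatives run. The median log2 fold change of −0.48 was −0.40 with library totals alone, −0.42 with upper-quartile scaling, −0.50 with no low-count filter, −0.55 with the GC-content offset and −0.55 with the replicate block and that offset, and −0.52 to −0.46 with each library left out. With library totals and upper-quartile scaling in turn, the class medians were −0.58 and −0.60 (alpha ring), −0.14 and −0.15 (beta ring), −0.24 and −0.25 (ATPases), −0.71 and −0.72 (non-ATPases). These scalings moved the median of all tested genes to 0.09 and 0.07. With each library left out, medians ran from −0.82 to −0.72 for non-ATPases and from 0.99 to 1.25 for activators, and adding the sequence-sharing genes gave 1.32 for activators. The inducible share in KO was 10.2% with the coding length. Signs turned for Psmc3 (−0.078 with the GC-content offset, −0.078 with the replicate block and that offset, −0.0046 without KO replicate 3 and up to 0.10 without KO replicate 1), Psmb4 (0.027 with library totals, 0.013 with upper-quartile scaling) and Keap1 (0.034 and 0.019 with the same), none of them called in the comparison as reported. The cause was not tested. The titles number the replicates without saying whether same-numbered libraries belong together. The correlations of deviations of same-numbered libraries were 0.15, −0.12 and 0.16, which cannot settle it. With the replicate block 42 proteasome genes were called, Psmb6 and Psmc2 being added. Depth limits Psmb8, Psmb9 and Psmb11, each under 30 counts per genotype.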

Other observations

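Processed pseudogenes that share sequence with proteasome genes were counted too. Gm13835, which shares 616 of its 50-base words with Psma3, held counts equal to 22.0% of those of Psma3 in WT and 18.4% in KO, and fell by 1.05 on the log2 scale (edgeR adjusted p 8.2e-08). Gm3375 held 22.0% of the level of Psmb5 in WT and 17.7% in KO and fell by 0.70 (adjusted p 1.3e-05). For Psma5 the pseudogenes Gm8394 and Gm12989 held 11.6% and 10.1% of its WT level. Reads from the stretches that a pseudogene shares with its parent gene cannot be told apart, and how they were counted is not given.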
